A study of Mus musculus with 4 samples.

Results

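The genes described here are 10 genes of liver endothelium, Pecam1, Cdh5, Kdr, Tek, Tie1, Plvap, Stab1, Stab2, Lyve1 and Egfl7, followed isoform by isoform in embryonic liver at embryonic stage E15.5 and, for Pecam1 and Stab2, in whole embryos at E11.5. The rule that picks them is their symbols, as markers of blood vessels and of the liver's sinusoids, and it was set with earlier results of these data known. All 10 were found among the 33777 named genes that both liver libraries list, and 2 of them among the 4201 named genes that both embryo libraries list.

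Total RNA was sequenced from mice in 4 groups with 1 library each. The groups were livers labelled Adar1-/- Mavs-/- and livers labelled Adar1-/-, both at E15.5 and of the strain label C57B6/J, and whole embryos labelled Adar1-/- Mavs-/- and whole embryos labelled Adar1-/-, both at E11.5 and of the strain label C57B16/N. Every group lacks Adar1 by its label, so no group is labelled wild type and none is labelled as lacking Mavs alone. The enzyme ADAR1, encoded by Adar, edits adenosines of double-stranded RNA to inosines. MAVS relays the signal of the RNA sensors RIG-I and MDA5. The labels do not say which alleles were used, how many animals gave a library, or how the livers were dissected. With 1 library per group no difference could be tested, so every value below describes a pair of libraries and not a pair of genotypes.

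The endothelium of the fetal liver lines the larger vessels and the sinusoids, wide capillaries through which blood meets hepatocytes and developing blood cells. All endothelial cells are held together by cadherin junctions and are kept alive and in order by the VEGF and angiopoietin receptor kinases. Sinusoidal cells also carry scavenger and hyaluronan receptors, with which they take up waste molecules from the blood.

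In the liver labelled Adar1-/- Mavs-/-, the level of every endothelial gene was below that in the liver labelled Adar1-/-. For Cdh5, Kdr, Tie1, Plvap, Stab1 and Stab2 the confidence bounds of the libraries did not overlap, with log2 ratios between -1.39 (Cdh5) and -0.65 (Tie1). The sizes for Cdh5 and Stab1 shrink to -0.45 and -0.25 under other ways of counting their isoforms, and Cdh5 turns to 2.69 with reference isoforms only, as described with each gene. Pecam1, Tek and Lyve1 lay close together, at -0.17, -0.08 and -0.12, and their bounds overlapped. Egfl7 was listed at 0 in the liver labelled Adar1-/- Mavs-/- and had 6.28 FPKM in the liver labelled Adar1-/-. FPKM, the unit deposited by the authors, is fragments per kilobase of transcript, set against the mapped fragments of the library. A gene's level is the sum of the FPKM of its isoforms, and its bounds are combined from those that Cufflinks gave each isoform, which cover the estimate within a library only. Log2 ratios are of FPKM plus 1, with the Adar1-/- Mavs-/- label over the Adar1-/- label within a tissue, after a factor of 0.995 in liver and 1.34 in embryos that brings the median of well-expressed genes to 0.

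Of the 10 members, 3 were at least 2-fold lower in the liver labelled Adar1-/- Mavs-/- (Cdh5, Plvap and Egfl7), beside 9.7% of the 13850 genes with at least 1 FPKM in either liver library. None was at least 2-fold higher, beside 6.6% of those genes. All 10 log2 ratios were below 0, as were those of 58% of all genes counted. The median of the members was -0.83, beside -0.12 over all genes, and it was -0.70 over the 9 members that were above 0 in both libraries. In bulk RNA, fewer endothelial cells and less of these RNAs per cell cannot be told apart.

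How the isoforms are counted bears on several of these values, because the deposited isoforms include transcripts assembled from the reads beside the reference transcripts of Ensembl. A sum over short pieces that lie side by side in a gene counts their FPKM more than once for the same molecule. A second level was therefore computed in which each isoform's FPKM was multiplied by its length and the sum was divided by the length of the gene's longest annotated reference transcript. The weighting raises the value of an assembled isoform that is longer than that transcript, as in Stab1 and Egfl7. On this length-weighted scale 2 members were at least 2-fold lower (Stab1 and Egfl7), beside 9.18% of genes, and none was at least 2-fold higher, beside 6.18%. All 10 ratios were below 0, beside 59.8% of genes, and the median was -0.71. Before scaling, the bounds of 7 members above 0 in both libraries lay apart. Lyve1 is among these 7, and its ratio after scaling had bounds from -0.23 to 0.0008, which include 0. Cdh5 was at -0.45 and Plvap at -0.98 on that scale, short of 2-fold.

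Other ways of counting gave other members past 2-fold. With reference isoforms only, 9 members could be counted, of which 6 were below 0, beside 60.8% of genes. Of these 9, 2 were at least 2-fold lower (Plvap and Stab1), beside 17% of genes, and 1 was at least 2-fold higher (Cdh5), beside 6.63%. Without assembled isoforms that run over 500 bases past the reference isoforms of their gene, 3 members were at least 2-fold lower, beside 10.4% of genes, and none higher, beside 6.75%. All 10 ratios were then below 0, beside 58.2% of genes, at a median of -0.67. Without genes listed at 0 in a library, 2 of 9 members were at least 2-fold lower, beside 6.76% of genes, none was higher, beside 2.71%, and 9 were below 0, beside 59%. The members below 0 under every setting tried in liver were Kdr, Tie1, Plvap, Stab1, Stab2 and Lyve1.

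**Figure D1:**
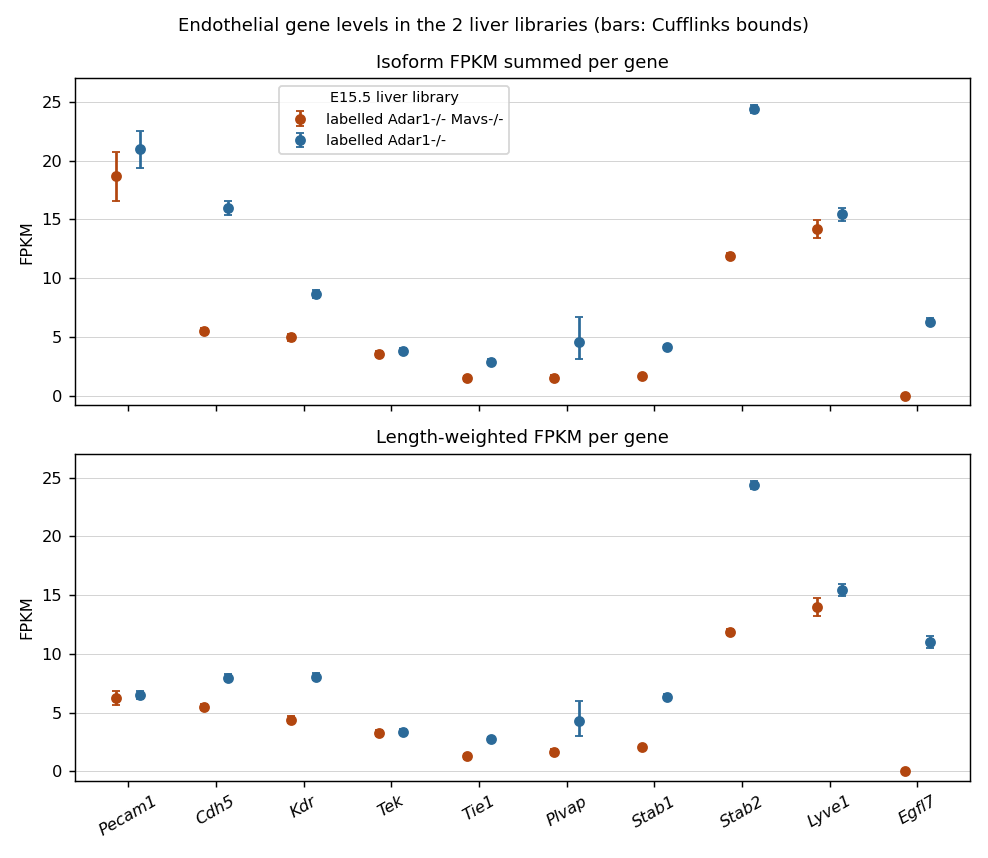
Levels of the 10 genes in FPKM in the E15.5 liver libraries labelled Adar1-/- Mavs-/- (left of each pair) and Adar1-/- (right), as summed isoforms above and length-weighted below. Points are single libraries and bars are Cufflinks bounds; Stab2 has 11.9 FPKM in the liver labelled Adar1-/- Mavs-/- and 24.4 in the liver labelled Adar1-/-, while the bounds of Pecam1 and Tek overlap in each panel.

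A few facts of the libraries touch these values. The coverage that 1 FPKM stands for, a measure of depth, was 7.13 in the liver labelled Adar1-/- Mavs-/- and 8.58 in the liver labelled Adar1-/-. Read totals were not analysed here. The targeted gene Adar (mm9 chr3:89518944-89557368) had 4.11 FPKM in the liver labelled Adar1-/- Mavs-/-, with 3 of 8 reference isoforms above 0 and no stretch without an isoform. It had 5.56 FPKM in the liver labelled Adar1-/-, with 0 of 8 reference isoforms above 0 and 16246 bases of the gene spanned by no isoform. Mavs had 9.96 FPKM in the liver labelled Adar1-/- Mavs-/- and 7.26 FPKM in the liver labelled Adar1-/-, with 2 of 4 reference isoforms above 0 and no such stretch in either. Adar and Mavs in the liver labelled Adar1-/- Mavs-/- thus both go against that label, as far as a transcript level can show the loss of a gene whose targeted exons the labels do not give. The genotypes below are named as labels only. Of the genes counted, 174 were listed at 0 in the liver labelled Adar1-/- Mavs-/- with at least 5 FPKM in the liver labelled Adar1-/-, and 231 the other way. Why a gene was listed at 0 was not tested, and an exact 0 is not read here as absence.

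The marker lists of other cell types also differed between the livers. Their counts stand beside the 9.7% of all genes counted that were at least 2-fold lower and the 6.6% at least 2-fold higher. All 8 skeletal and heart muscle markers were at least 2-fold lower in the liver labelled Adar1-/- Mavs-/-, with a summed 9.77 FPKM against 153 FPKM in the liver labelled Adar1-/-, and none was at 0 in either. Stellate, mesothelial and fibroblast markers summed to 140 FPKM in the liver labelled Adar1-/- Mavs-/- and 246 FPKM in the liver labelled Adar1-/-, with 2 of 9 at least 2-fold lower. Of the macrophage markers 3 of 10 were at least 2-fold higher (Adgre1, Vsig4 and Cd68), with a summed 119 FPKM against 97.9 FPKM in the liver labelled Adar1-/-. There, Cd68 alone of them was listed at 0, and Vsig4 had only 0.0086 FPKM. With reference isoforms only, the log2 ratios were 1.01 for Adgre1, -0.01 for Vsig4 and 1.25 for Cd68. Megakaryocyte and platelet markers, of which 1 of 6 was at least 2-fold higher, summed to 132 FPKM in the liver labelled Adar1-/- Mavs-/- and 66.7 FPKM in the liver labelled Adar1-/-. The 8 hepatocyte markers summed to 14096 and 12124 FPKM in the same order of libraries, with none past 2-fold in either direction. Erythroid markers summed to 2314 FPKM in the liver labelled Adar1-/- Mavs-/- and 1865 FPKM in the liver labelled Adar1-/-, with 1 of 5 at least 2-fold higher, and stem and progenitor markers to 24.8 and 30.5 FPKM, with 1 of 4 at least 2-fold lower. Lymphatic markers, which include Lyve1, summed to 57.0 and 72.2 FPKM, with none of 5 past 2-fold. The marker lists for endothelium and for sinusoidal endothelium, which hold the members, summed to 38.7 and 41.8 FPKM in the liver labelled Adar1-/- Mavs-/- and to 64.1 and 63.4 FPKM in the liver labelled Adar1-/-. They had 2 of 8 and 1 of 8 genes at least 2-fold lower. The 2 were Cdh5 and Egfl7, at 5.50 and 0 FPKM in the liver labelled Adar1-/- Mavs-/-. In the liver labelled Adar1-/- they had 16.0 and 6.28 FPKM, which lay on assembled pieces alone. The part of these cell types in the endothelial values was not tested.

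Pecam1 and Cdh5 encode the adhesion proteins of the endothelial cell border. Pecam1 (CD31, an immunoglobulin-family protein also present on platelets and some leukocytes) had 18.7 FPKM, with bounds of 16.6 to 20.8, in the liver labelled Adar1-/- Mavs-/- and 20.97 FPKM (19.4 to 22.6) in the liver labelled Adar1-/-. Its length-weighted levels were 6.23 and 6.51 FPKM, and on both scales the bounds overlapped. The near-equal sums were made of unlike pieces. The full-length reference transcript ENSMUST00000103069 (mm9 chr11:106515531-106576579) had 1.11 FPKM in the liver labelled Adar1-/- Mavs-/- and 1.35 FPKM in the liver labelled Adar1-/-. A protein-coding fragment of 918 bases, ENSMUST00000124958, had 6.74 FPKM with the status LOWDATA in the liver labelled Adar1-/- Mavs-/-. It had 5.93 FPKM with the status OK in the liver labelled Adar1-/-. LOWDATA is Cufflinks' mark for a locus too complex or too shallowly sequenced. The deposited coverage of this fragment in the liver labelled Adar1-/- Mavs-/- was 48.1, so the mark need not mean few reads. A retained-intron transcript of 681 bases, ENSMUST00000135481, had 5.59 FPKM in the liver labelled Adar1-/- Mavs-/- and was listed at 0 in the liver labelled Adar1-/-, where an assembled piece of 475 bases in a single exon had 10.03 FPKM. Short isoforms thus held most of the summed Pecam1 value in each liver. Its log2 ratio was -1.59 with isoforms of status OK only and 0.80 with reference isoforms only, so no direction can be read for Pecam1. Isoforms inside its span that got no symbol were left out. Their length-weighted sums were 2.81 FPKM in the liver labelled Adar1-/- Mavs-/- and 3.29 FPKM in the liver labelled Adar1-/-.

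Cdh5 encodes VE-cadherin, the cadherin of endothelial junctions. It had 5.50 FPKM (5.22 to 5.77) in the liver labelled Adar1-/- Mavs-/- and 16.0 FPKM (15.3 to 16.6) in the liver labelled Adar1-/-. In the liver labelled Adar1-/- Mavs-/- the whole value lay on the reference transcript ENSMUST00000034339 (3986 bases, mm9 chr8:106625525-106668402), which was listed at 0 in the liver labelled Adar1-/-. There, the gene was carried by 2 assembled pieces that do not overlap. A piece of 1806 bases (mm9 chr8:106625525-106662330) had 10.4 FPKM, and a piece of 2340 bases (mm9 chr8:106664519-106668409) had 5.54 FPKM. The sum of 16.0 FPKM thus counts a molecule that spans both pieces at each of them. Mean read depth, the coverage that the authors deposited, was 39.2 on the transcript in the liver labelled Adar1-/- Mavs-/-, and 89.4 and 47.5 on the pieces in the liver labelled Adar1-/-. The length-weighted level was 5.50 FPKM in the liver labelled Adar1-/- Mavs-/- and 7.97 FPKM in the liver labelled Adar1-/-, with bounds apart. With reference isoforms only the log2 ratio turned to 2.69, since that counts none of the Cdh5 pieces in the liver labelled Adar1-/-.

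Kdr, Tek and Tie1 encode the receptor kinases of endothelium. Kdr is VEGFR2, the main signalling receptor for VEGF-A. Tek is Tie2, the receptor of the angiopoietins, and Tie1 is its partner without a ligand of its own in that family. Their RefSeq promoters (build GRCm38.p6, another build than the mm9 of the deposited values; 250 bases before to 50 after the start) are shown because these receptors are of a kind and yet lay apart in the liver comparison. Capitals mark matches on either strand to GGAAGT, a motif of ETS factors, and to the motif TTATCT of GATA factors.
Kdr (chr5:75978406-75978705, minus strand): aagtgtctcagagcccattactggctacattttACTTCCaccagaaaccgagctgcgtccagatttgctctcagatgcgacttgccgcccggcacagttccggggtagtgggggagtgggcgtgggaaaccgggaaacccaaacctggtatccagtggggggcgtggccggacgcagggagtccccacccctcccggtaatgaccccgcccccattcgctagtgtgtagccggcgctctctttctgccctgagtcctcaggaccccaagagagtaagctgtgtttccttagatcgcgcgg
Tek (chr4:94739039-94739338, plus strand): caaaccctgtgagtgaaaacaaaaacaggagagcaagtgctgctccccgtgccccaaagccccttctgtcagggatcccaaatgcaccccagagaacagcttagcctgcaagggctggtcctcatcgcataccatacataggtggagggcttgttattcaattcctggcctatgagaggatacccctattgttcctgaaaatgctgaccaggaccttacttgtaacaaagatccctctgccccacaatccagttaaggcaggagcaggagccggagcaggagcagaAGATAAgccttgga
Tie1 (chr4:118489800-118490099, minus strand): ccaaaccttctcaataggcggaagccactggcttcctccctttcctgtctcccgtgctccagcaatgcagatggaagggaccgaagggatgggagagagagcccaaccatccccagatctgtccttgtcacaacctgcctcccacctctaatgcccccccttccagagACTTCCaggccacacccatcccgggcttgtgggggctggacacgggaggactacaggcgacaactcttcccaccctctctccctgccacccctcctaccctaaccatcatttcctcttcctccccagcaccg
The Kdr and Tie1 windows each hold 1 GGAAGT and the Tek window holds none, while the Tek window holds 1 TTATCT, on its opposite strand. On either strand, GGAAGT occurs in 23.8% and TTATCT in 11.2% of the 32851 mouse promoters of the same length, so each match is common and only describes these letters.

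Kdr had 4.97 FPKM (4.65 to 5.29) in the liver labelled Adar1-/- Mavs-/- and 8.66 FPKM (8.34 to 8.98) in the liver labelled Adar1-/-, a log2 ratio of -0.70. Both of its reference isoforms above 0 were lower in the liver labelled Adar1-/- Mavs-/-. The protein-coding ENSMUST00000113516 had 2.27 FPKM against 4.39 FPKM in the liver labelled Adar1-/-. ENSMUST00000076072, which the GENCODE M21 annotation does not hold and which had the status LOWDATA in both, had 1.41 FPKM in the liver labelled Adar1-/- Mavs-/- and 2.63 FPKM in the liver labelled Adar1-/-. The makeup of Kdr was alike in the libraries, with the protein-coding transcript at 51.6% of the length-weighted level in the liver labelled Adar1-/- Mavs-/- and 54.5% in the liver labelled Adar1-/-. The Kdr log2 ratio ran from -0.93 to -0.63 over all alternatives tried.

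Tie1 was the lowest of the receptors, with 1.48 FPKM (1.25 to 1.71) in the liver labelled Adar1-/- Mavs-/- and 2.87 FPKM (2.66 to 3.09) in the liver labelled Adar1-/-. Its bounds did not overlap, at a log2 ratio of -0.65. The protein-coding ENSMUST00000047421 (mm9 chr4:118143796-118162666) had 0.920 FPKM in the liver labelled Adar1-/- Mavs-/- and 1.74 FPKM in the liver labelled Adar1-/-. The shorter ENSMUST00000153286, annotated as a processed transcript, was listed at 0 in the liver labelled Adar1-/- Mavs-/- and had 0.467 FPKM in the liver labelled Adar1-/-. The Tie1 log2 ratio ran from -0.92 to -0.62 over the alternatives.

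Tek lay close together in the livers, with 3.54 FPKM (3.30 to 3.78) in the liver labelled Adar1-/- Mavs-/- and 3.79 FPKM (3.55 to 4.03) in the liver labelled Adar1-/-. Its log2 ratio was -0.08, and it was 0.11 with reference isoforms only. The protein-coding Tek transcripts went opposite ways. ENSMUST00000071168 had 2.72 FPKM (2.52 to 2.92) in the liver labelled Adar1-/- Mavs-/- and 2.14 FPKM (1.97 to 2.31) in the liver labelled Adar1-/-, which is 76.8% and 56.5% of the summed Tek level. The longer ENSMUST00000102798 had 0.820 FPKM (0.700 to 0.940) in the liver labelled Adar1-/- Mavs-/- and 1.04 FPKM (0.922 to 1.16) in the liver labelled Adar1-/-. An assembled Tek isoform of 0.605 FPKM was listed in the liver labelled Adar1-/- alone, so how the reads were shared among isoforms also differed. The bounds of ENSMUST00000071168 lay apart in favour of the liver labelled Adar1-/- Mavs-/-, and those of ENSMUST00000102798 overlapped. Inside the Tek span, 42 isoforms above 0 in the liver labelled Adar1-/- Mavs-/- and 62 in the liver labelled Adar1-/- got no symbol. They were left out of Tek. Their length-weighted sums were 6.80 and 6.31 FPKM, against 3.26 and 3.37 FPKM for Tek itself. Whether they belong to Tek was not tested.

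Within a library, length-weighted Kdr stood at 1.35 times Tek in the liver labelled Adar1-/- Mavs-/- and at 2.39 times Tek in the liver labelled Adar1-/-. Tek stood at 2.51 times Tie1 in the liver labelled Adar1-/- Mavs-/- and at 1.22 times Tie1 in the liver labelled Adar1-/-. The balance of the receptors thus differed between the livers, as a ratio that no scaling of a library changes. These ratios leave out the isoforms without a symbol inside the gene spans.

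Plvap encodes the protein of the diaphragms that close endothelial fenestrae and caveolae. It had 1.53 FPKM (1.31 to 1.75) in the liver labelled Adar1-/- Mavs-/- and 4.60 FPKM (3.14 to 6.72) in the liver labelled Adar1-/-, a log2 ratio of -1.15. The reference transcript ENSMUST00000048452 (mm9 chr8:74021653-74035668) had 1.13 FPKM in the liver labelled Adar1-/- Mavs-/- and 3.70 FPKM in the liver labelled Adar1-/-. The rest of its value in the liver labelled Adar1-/- Mavs-/- was an assembled isoform of 0.402 FPKM that runs 1021 bases past the reference and overlaps the neighbouring gene Gtpbp3. Without assembled isoforms that run over 500 bases past their gene, the Plvap log2 ratio was -1.40. Plvap was below 0 under every alternative tried, between -1.54 and -0.98.

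Stab1 and Stab2 encode the stabilins, large scavenger receptors that mark sinusoidal endothelium, and stabilin-2 clears hyaluronan from the blood. Stab1 is also found on some macrophages. Their RefSeq promoters, with a match to CAGGAAG, another motif of ETS factors, in capitals, are shown because the pair of paralogs shares a function and a place of expression.
Stab1 (chr14:31168592-31168891, minus strand, GRCm38.p6): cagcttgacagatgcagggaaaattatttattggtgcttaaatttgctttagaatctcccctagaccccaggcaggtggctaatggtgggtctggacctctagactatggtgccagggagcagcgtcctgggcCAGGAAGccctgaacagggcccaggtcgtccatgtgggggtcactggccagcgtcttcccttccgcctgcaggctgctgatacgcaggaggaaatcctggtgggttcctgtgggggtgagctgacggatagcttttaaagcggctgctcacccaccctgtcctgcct
Stab2 (chr10:87007893-87008192, minus strand, GRCm38.p6): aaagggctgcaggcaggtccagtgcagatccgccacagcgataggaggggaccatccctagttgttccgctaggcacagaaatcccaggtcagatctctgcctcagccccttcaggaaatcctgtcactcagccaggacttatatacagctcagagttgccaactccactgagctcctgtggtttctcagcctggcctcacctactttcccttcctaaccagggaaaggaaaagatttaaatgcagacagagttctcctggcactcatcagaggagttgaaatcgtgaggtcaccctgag
The Stab1 window holds 1 CAGGAAG, a motif of 13.3% of all promoters, and the Stab2 window holds none of the motifs searched. The search also covered, on both strands, the motif TTATCA that GATA factors bind, found in 9.05% of promoters, and the FOX-factor motif TGTTTAC, found in 3.65%. Both ETS motifs can overlap, and 31.4% of promoters hold either. Of the members, 6 had a RefSeq promoter (Kdr, Tek, Tie1, Stab1, Stab2 and Egfl7), with 8 promoters among them because Egfl7 has 3. Of these 8 promoters, 5 held either ETS motif, which is the count to set beside the 31.4% of promoters. Counted by gene, 4 of the 6 members held either motif in at least 1 promoter. These counts are small and were not tested.

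Stab2 had 11.9 FPKM (11.6 to 12.2) in the liver labelled Adar1-/- Mavs-/- and 24.4 FPKM (24.0 to 24.7) in the liver labelled Adar1-/-. It gives the plainest comparison of the set, because a single reference transcript, ENSMUST00000035288 (8228 bases, mm9 chr10:86303943-86470770), carried all of the gene's value in both livers. Its mean read depth was 84.7 in the liver labelled Adar1-/- Mavs-/- and 209.1 in the liver labelled Adar1-/-. The log2 ratio was -0.98 and stayed between -1.26 and -0.94 over the alternatives.

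Stab1 had 1.66 FPKM (1.57 to 1.76) in the liver labelled Adar1-/- Mavs-/- and 4.15 FPKM (3.999 to 4.30) in the liver labelled Adar1-/-, a log2 ratio of -0.96. An assembled isoform of 9944 bases held the whole value in the liver labelled Adar1-/- Mavs-/-. In the liver labelled Adar1-/-, the reference transcript ENSMUST00000036618 (mm9 chr14:31952199-31981827) had 2.17 FPKM and an assembled isoform of 16939 bases had 1.98 FPKM. That assembled isoform runs 7895 bases past Stab1 and over the neighbouring gene Nt5dc2, so part of what it counts is not Stab1. Without isoforms of this kind the log2 ratio of Stab1 was -0.25, with 1.66 FPKM in the liver labelled Adar1-/- Mavs-/- and 2.17 FPKM in the liver labelled Adar1-/- and bounds apart. The length-weighted ratio of -1.25, which is past 2-fold, also includes the isoform that runs into Nt5dc2. With reference isoforms only the log2 ratio was -1.67, since the liver labelled Adar1-/- Mavs-/- is then listed at 0. The size of the Stab1 difference therefore depends on which assembled isoforms are counted.

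Lyve1 encodes a hyaluronan receptor of lymphatic and sinusoidal endothelium, which some macrophages also carry. It had 14.2 FPKM (13.5 to 15.0) in the liver labelled Adar1-/- Mavs-/- and 15.4 FPKM (14.9 to 15.9) in the liver labelled Adar1-/-. These bounds overlapped, at a log2 ratio of -0.12. Before scaling, the length-weighted bounds lay just apart. The scaled length-weighted ratio of -0.11 had bounds from -0.23 to 0.0008, which include 0. Inside the Lyve1 span, 2 isoforms in the liver labelled Adar1-/- Mavs-/- and 0 in the liver labelled Adar1-/- got no symbol. They were left out, at a length-weighted sum of 0.506 FPKM. The reference transcript ENSMUST00000033050 (mm9 chr7:117994121-118006467) had 10.5 FPKM in the liver labelled Adar1-/- Mavs-/-, beside an assembled isoform of 3.72 FPKM, and 15.4 FPKM alone in the liver labelled Adar1-/-. With reference isoforms only the log2 ratio of Lyve1 was -0.52, with bounds apart, and it ran from -0.53 to -0.07 over the alternatives. The difference of Stab2 was thus not seen at its size in Lyve1. Length-weighted Stab2 stood at 0.849 times Lyve1 in the liver labelled Adar1-/- Mavs-/- and at 1.58 times Lyve1 in the liver labelled Adar1-/-.

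Egfl7 encodes a secreted protein of the endothelial matrix, and its intron holds the endothelial microRNA miR-126. The mature miR-126a-3p of RefSeq (GRCm38.p6 chr2:26591402-26591423, plus strand) is shown because it is made from the same primary transcript, with its seed, bases 2 to 8, in capitals.
mmu-miR-126a-3p: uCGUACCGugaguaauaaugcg
All 20 reference isoforms of Egfl7 were listed at 0 in both livers. The only Egfl7 value was an assembled isoform of 3259 bases in a single exon (mm9 chr2:26442150-26445408) in the liver labelled Adar1-/-, at 6.28 FPKM (5.99 to 6.58), which also overlaps the gene Gm20532. No spliced transcript assigned to Egfl7 was thus estimated above 0 in either library, and no fold is given. Inside the Egfl7 span, 1 isoform of 0.431 FPKM in the liver labelled Adar1-/- Mavs-/- got no symbol and was left out. The liver labelled Adar1-/- had 0 such isoforms. Whether the isoform without a symbol belongs to Egfl7 was not tested. The count of 3 members at least 2-fold lower and the median of -0.83 still include Egfl7. Without Egfl7, 2 of 9 members were at least 2-fold lower, at a median of -0.70. The level of the mature microRNA was not analysed here.

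**Figure D2:**
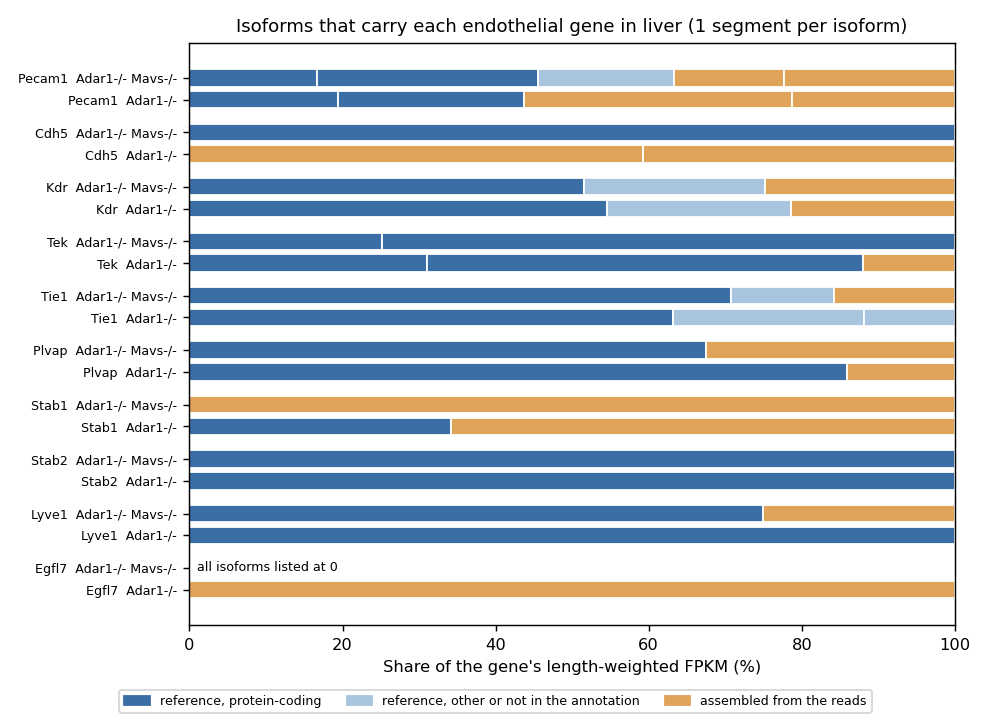
Share of each gene's length-weighted FPKM (percent, horizontal axis) carried by each isoform above 0 in the E15.5 liver libraries labelled Adar1-/- Mavs-/- (upper bar of each pair) and Adar1-/- (lower bar). Segments are isoforms, coloured as protein-coding reference, other reference or assembled; Stab2 has 1 reference transcript in both, and Cdh5 is all reference in the liver labelled Adar1-/- Mavs-/- and all assembled in the liver labelled Adar1-/-.

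For all 10 genes together, the liver labelled Adar1-/- Mavs-/- listed 67 isoforms (60 reference, 7 assembled), of which 20 were above 0. The library labelled Adar1-/- listed 69 (60 reference, 9 assembled), of which 22 were above 0. In each library 13 of the 60 reference isoforms were above 0. The status was OK for 40 isoforms and LOWDATA for 27 in the liver labelled Adar1-/- Mavs-/-, and OK for 43 and LOWDATA for 26 in the liver labelled Adar1-/-, with no failed status in either. Isoforms of status LOWDATA were above 0 in 3 cases in the liver labelled Adar1-/- Mavs-/- and in 1 case in the liver labelled Adar1-/-.

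**Figure D3:**
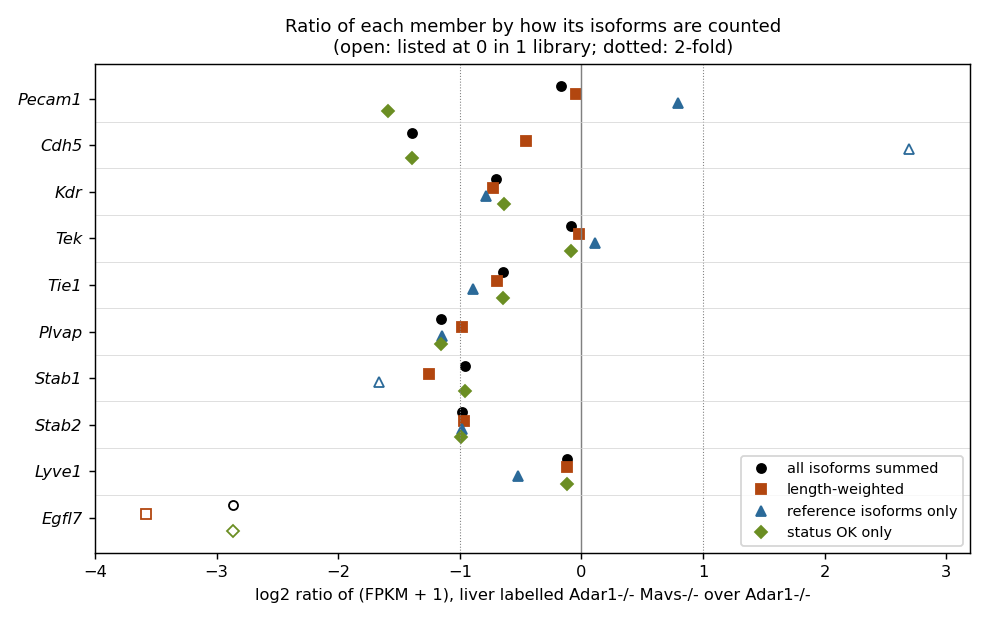
Log2 ratio of FPKM plus 1 (horizontal axis), the liver labelled Adar1-/- Mavs-/- over that labelled Adar1-/-, for each gene under 4 ways of counting isoforms. Open symbols mark genes listed at 0 in a library and dotted lines mark 2-fold; Kdr, Tie1, Plvap and Stab2 keep together left of 0, while Cdh5 runs to 2.69 and Pecam1 to 0.80 with reference isoforms only, and Egfl7 has no reference value.

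The order of the length-weighted levels in the liver labelled Adar1-/- Mavs-/- was Lyve1 (14.0 FPKM), Stab2 (11.9), Pecam1 (6.23), Cdh5 (5.50), Kdr (4.40), Tek (3.26), Stab1 (2.07), Plvap (1.67), Tie1 (1.30) and Egfl7 at 0. Neighbours whose bounds overlapped were Pecam1 with Cdh5 and Plvap with Tie1. In the liver labelled Adar1-/- the order was Stab2 (24.4 FPKM), Lyve1 (15.4), Egfl7 (10.98), Kdr (8.05), Cdh5 (7.97), Pecam1 (6.51), Stab1 (6.36), Plvap (4.30), Tek (3.37) and Tie1 (2.76). The place of Egfl7 rests on an assembled single-exon isoform of 3259 bases and 6.28 FPKM. Its length-weighted level is higher because the reference length is 1865 bases. The place of Stab1 includes the isoform that runs into Nt5dc2. There, Kdr with Cdh5, Pecam1 with Stab1 and Plvap with Tek had overlapping bounds. Stab2 and Lyve1 led in both livers, in opposite order. A likeness of other genes' patterns to these was not computed, since only 2 libraries hold all members.

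Other genes of the endothelial pathways were described from lists of symbols, whose counts stand beside the 9.7% of all genes at least 2-fold lower and the 6.6% at least 2-fold higher. Of 22 other pan-endothelial genes counted, 3 were at least 2-fold lower (Ramp2, Vwf and Eng, the last named after its value was seen) and 1 was at least 2-fold higher, with a median log2 ratio of -0.49. When length-weighted, 2 were lower and 0 higher. Ramp2, a co-receptor for adrenomedullin, was listed at 0 in the liver labelled Adar1-/- Mavs-/- and had 5.69 FPKM in the liver labelled Adar1-/-. Vwf, von Willebrand factor, had 1.81 FPKM in the liver labelled Adar1-/- Mavs-/- and 5.30 FPKM, with bounds from 1.49 to 286, in the liver labelled Adar1-/-. Ecscr, an endothelial surface protein, had 14.3 FPKM in the liver labelled Adar1-/- Mavs-/- and 3.66 FPKM in the liver labelled Adar1-/-, a log2 ratio of 1.71 that was -0.18 when length-weighted. The wide bounds of Vwf and the turn of Ecscr leave neither with a direction. Myct1 was at 0.30.

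Of 12 further sinusoidal and clearance genes, none was past 2-fold and the median was -0.22, near that of all genes. When length-weighted, 1 was at least 2-fold lower, Gata4, at -1.39, named after its value was seen. Gata4 was at -0.30 when summed and at 0.33 with reference isoforms only. Cd36, a fatty acid receptor also present on platelets and macrophages, had 28.9 FPKM in the liver labelled Adar1-/- Mavs-/- and 15.0 FPKM in the liver labelled Adar1-/-. Mrc1, the mannose receptor of sinusoidal cells and macrophages, had 14.9 and 9.13 FPKM in the same libraries. Cd36 and Mrc1 were the highest of the list, and the macrophage markers had a median of 0.70, with 2 of 10 below 0, Marco at -0.39 and Cd5l at -0.12. The lowest were Ehd3 (-0.79) and Bmp2 (-0.55, and 0.45 with reference isoforms only).

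The ligands and partner receptors of the members came next. Of 15 vascular ligands counted, 1 was at least 2-fold lower and 1 at least 2-fold higher, at a median of -0.25. Angpt2, an angiopoietin that mainly blocks Tie2, had 7.50 FPKM in the liver labelled Adar1-/- Mavs-/- and 2.49 FPKM in the liver labelled Adar1-/-, a log2 ratio of 1.28 that was 0.54 when length-weighted, with no reference isoform above 0 in either. Angpt1, which activates Tie2, had 2.43 and 1.39 FPKM in the same libraries, a log2 ratio of 0.51. Jag1, a Notch ligand, was at -0.77, and Vegfd was listed at 0 in the liver labelled Adar1-/- Mavs-/- and had 1.19 FPKM in the liver labelled Adar1-/-. Of 11 partner receptors, 3 were at least 2-fold lower (Nrp2, Ephb4 and again Eng) and none higher, at a median of -0.63. When length-weighted, 1 of the 11 was at least 2-fold lower, Eng, a co-receptor for BMP9, at -1.49. Ephb4, the venous ephrin receptor, had 3.92 FPKM in the liver labelled Adar1-/- Mavs-/- and 8.93 FPKM in the liver labelled Adar1-/-, a log2 ratio of -1.02. Nrp2, a VEGF co-receptor, was at -1.22 and Nrp1 at -0.40. Ptprb, the phosphatase VE-PTP that acts on Tie2 and VE-cadherin, was at 0.08, and at -0.31 when length-weighted.

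Of 14 endothelial transcription factors, 2 were at least 2-fold lower and none higher, at a median of -0.39. Ets2 was at -1.45 and Hey1, a Notch target, at -1.22, and neither was past 2-fold when length-weighted. Erg (0.48) and Sox17 (0.33) were the highest and turned to -0.10 and -0.37 when length-weighted. Of 13 junction partners, 3 were at least 2-fold lower (Jam2, Jam3 and Cgn, the last named after its value was seen), at a median of -0.49. Jam2 and Jam3, junctional adhesion molecules, were listed at 0 in the liver labelled Adar1-/- Mavs-/-, with 1.83 and 2.03 FPKM in the liver labelled Adar1-/-. Neither gene had a reference isoform above 0 in either liver. Ctnnb1, beta-catenin, was abundant and at -0.20.

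The caveolar and vessel matrix genes had the lowest median of these lists, -1.10, with 4 of 5 at least 2-fold lower (Eln, Cav1, Cavin1 and Lox, the last named after its value was seen). Cav1, the caveolin of endothelium, muscle and fat, had 0.508 FPKM (0.372 to 0.645) in the liver labelled Adar1-/- Mavs-/- and 6.53 FPKM (6.18 to 6.87) in the liver labelled Adar1-/-. Cavin1, its coat partner, had 3.61 and 8.45 FPKM in the same libraries, and elastin, Eln, had 1.07 and 12.3 FPKM. Cav2 was at 0.13. These genes are also expressed in muscle and connective tissue, whose markers had medians of -3.06, with 8 of 8 below 0, and -0.39, with 8 of 9 below 0, and their part in the result was not tested.

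**Figure D4:**
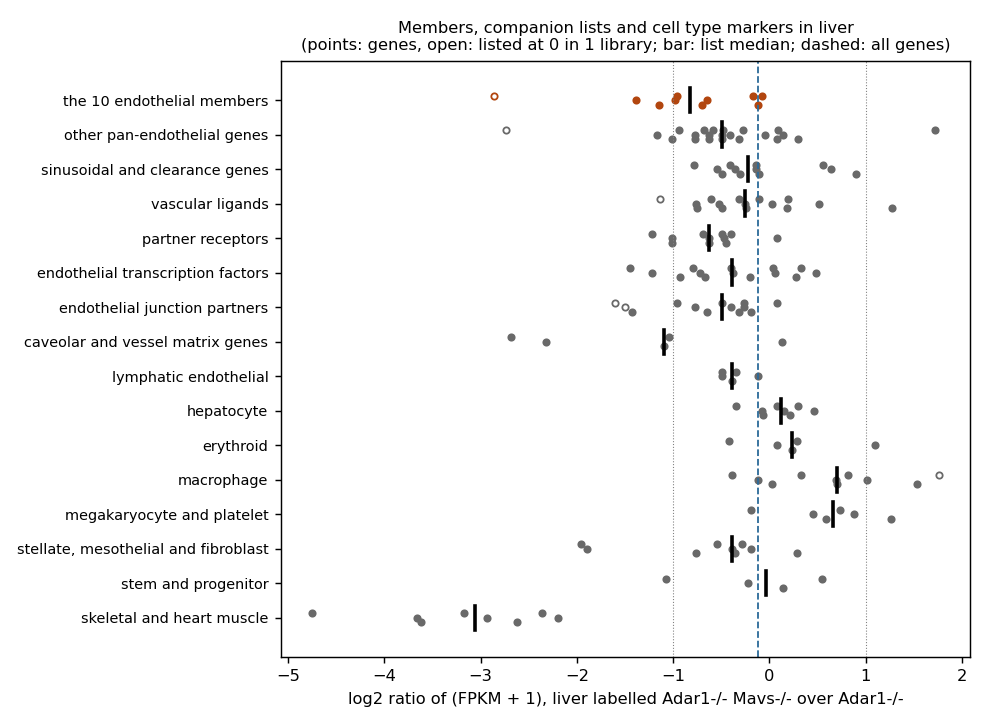
Log2 ratio of FPKM plus 1 (horizontal axis), the liver labelled Adar1-/- Mavs-/- over that labelled Adar1-/-, for the 10 genes, the companion lists and the marker lists of other cell types. Points are genes, open points are listed at 0 in a library, short bars are list medians and the dashed line is the median of all genes at -0.12; the members' median is -0.83 and that of the muscle markers is -3.06.

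In whole embryos at E11.5, Pecam1 had 22.2 FPKM (20.6 to 23.9) in the embryos labelled Adar1-/- Mavs-/- and 22.3 FPKM (16.6 to 28.3) in the embryos labelled Adar1-/-. After scaling, its log2 ratio was 0.40 with bounds from -0.04 to 0.90, and it was 0.00 when length-weighted. The full-length transcript had 2.80 FPKM in the embryos labelled Adar1-/- Mavs-/- and 3.22 FPKM in the embryos labelled Adar1-/-, and ENSMUST00000124958 had 6.34 and 12.3 FPKM in the same libraries. Before scaling, the bounds of the Pecam1 levels overlapped on these scales, and they lay apart with reference isoforms of status OK, at a log2 ratio of 1.19. After scaling, the bounds of the ratio also lay above 0 with all isoforms of status OK (0.36 to 1.51). They did so with an upper quartile factor too (0.02 to 0.96). The ratio was -0.52 on a TPM scale. That scale was set on the 4201 named genes that both embryo libraries list, and it shifted the median of all genes counted by -0.93. With the main bounds including 0 and settings that differ this much, no direction can be read for Pecam1 in embryos either. Its summed level was near that in the livers. The length-weighted levels of Pecam1 were 8.24 FPKM in the embryos labelled Adar1-/- Mavs-/- and 11.1 FPKM in those labelled Adar1-/-. In the livers they were 6.23 and 6.51 FPKM in the same order of labels.

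Stab2 was low in the embryos, with 1.19 FPKM (0.71 to 1.66) in the embryos labelled Adar1-/- Mavs-/- and 0.767 FPKM (0.50 to 1.03) in the embryos labelled Adar1-/-. The scaled log2 ratio was 0.55, and it was 0.02 when length-weighted, at levels of 0.211 and 0.265 FPKM. The full-length transcript that carried all of Stab2 in the livers was listed at 0 in both embryo libraries. Length-weighted Stab2 was thus far below its liver levels of 11.9 and 24.4 FPKM, in libraries whose tissue, age and strain label all differ from those of the livers. No member was counted as 2-fold lower or higher in embryos, beside 9.75% of 1917 genes lower and 6.52% higher. The embryo files used here share chromosomes 10 and 11 and some of chromosome 12, and the file of the embryos labelled Adar1-/- Mavs-/- goes on into chromosome 13, so the other 8 genes were not analysed here in embryos.

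**Figure D5:**
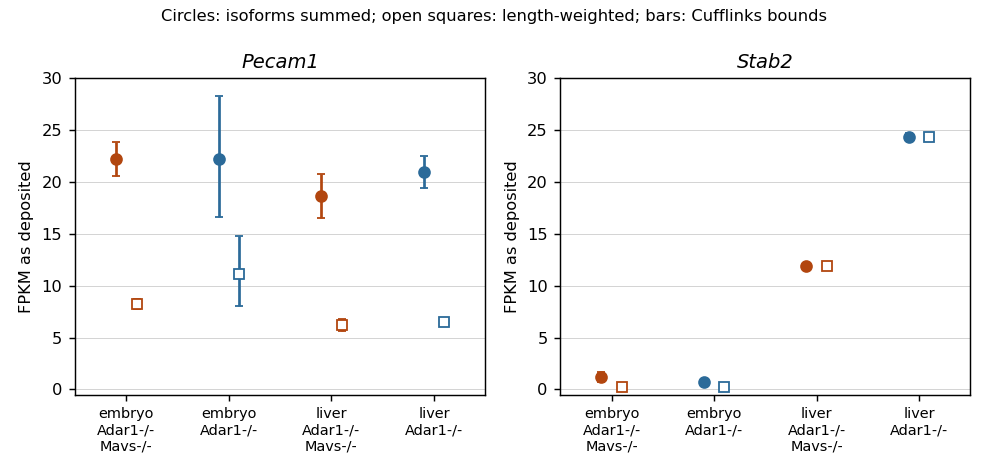
FPKM of Pecam1 (left panel) and Stab2 (right panel) as deposited in the 4 libraries, with embryos at E11.5 left of livers at E15.5 and the libraries labelled Adar1-/- Mavs-/- left of those labelled Adar1-/-. Circles are summed isoforms, open squares length-weighted levels and bars Cufflinks bounds; Stab2 lies between 0.767 and 1.19 FPKM in embryos and at 11.9 and 24.4 FPKM in livers, while summed Pecam1 lies between 18.7 and 22.3 FPKM in all 4.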

How the data were processed

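Trizol extracts of total RNA went into standard Illumina library preparation, per the labels' protocols. Per the submitters' processing notes, the tools include TopHat 1.4.0 and Cufflinks 2.2.1 and the build is mm9. The authors deposited 1 FPKM per isoform with a lower and an upper bound and a status, per the file headers. The deposited coverage signal gives each isoform's mean read depth and, per library, equals its FPKM times a constant. No source used here gives the strandedness, and overlapping genes may therefore share reads.

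Isoforms got symbols by Ensembl transcript identifier from GENCODE M21, which matched 86.7% of the reference isoforms in each liver library, 88.7% in the embryo library labelled Adar1-/- Mavs-/- and 90.2% in that labelled Adar1-/-. Assembled isoforms went to the symbol of their Cufflinks gene that they overlapped best. Isoforms without such a symbol were left out of the levels. FPKM of the isoforms under a symbol were treated as that gene's own. The FPKM of a gene's isoforms were summed, with a pseudocount of 1 in log2 ratios. Ratios were centred on the median of the genes that reach 5 FPKM in both (6892 in liver, 973 in embryos). Bounds of levels were compared before this centring, and bounds of ratios are given after it. A gene was counted if it reached 1 FPKM in either library, and called 2-fold at a log2 ratio of 1 in size. No test was possible with 1 library per group. The calculations were checked on simulated data and used python 3.11.15, pandas 2.3.3, numpy 2.4.6 and matplotlib 3.10.9.

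The members, lists and motifs were chosen with earlier results of these data known. All members are named, and of each companion list the 2 highest and the 2 lowest genes in liver. Alternatives were reference isoforms, isoforms of status OK, other scalings, a pseudocount of 0.1 and other filters. The length-weighted level, the removal of genes listed at 0 and the removal of assembled isoforms reaching over 500 bases past their gene were added after seeing the data. Promoter and microRNA sequences are from RefSeq tables of GRCm38.p6, and no coordinates were moved between builds.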

Additional observations from a re-analysis of the deposited data

Results flagged for a closer look

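Pecam1 and Stab2 stand here because their ratios lie on opposite sides of 0 in the embryo and liver comparisons. Pecam1 had a log2 ratio of 0.40 between the embryo libraries and -0.17 between the liver libraries, a gap of 0.57. The bounds of both ratios include 0 (-0.04 to 0.90 in embryos, -0.43 to 0.09 in liver), so neither sign can be read. Stab2 had 0.55 between the embryo libraries and -0.98 between the liver libraries, a gap of 1.53. The bounds of the embryo ratio include 0 (-0.06 to 1.10) and those of the liver ratio do not. With 1 library per group, neither difference between the tissues was tested. The length-weighted embryo ratios were 0.00 for Pecam1 and 0.02 for Stab2.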

How the results depend on the processing

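Of 98 recomputed values of single genes in liver, 62 lay within the bounds of the reported ratio, which are wide for Plvap, and 36 did not. The sign was opposite in 5. These were Cdh5 at 2.69 with reference isoforms only and at 2.69 with those of status OK only, since its value in the liver labelled Adar1-/- lies on assembled pieces, Tek at 0.11 under both settings, and Pecam1 at 0.80 with reference isoforms only. Those settings gave 1 and 1 members at least 2-fold higher in place of 0, beside 6.63% and 16.3% of all genes. The number at least 2-fold lower was 5 in place of 3 on a TPM scale, 5 if that scale leaves out the top 50 genes, and 5 with a pseudocount of 0.1, beside 13.9%, 15.2% and 15.2% of all genes. The median of -0.83 became -0.97 with isoforms of status OK, -1.0027 on the TPM scale, -1.0004 if it leaves out the top 50 genes and -0.98 with a pseudocount of 0.1. TPM shifted the median of all genes by -0.24 in liver, where it gave 632 genes higher and 1921 lower in place of 914 and 1344, and by -0.93 in embryos, where FPKM as deposited shifted it by -0.34. In embryos, Pecam1 (0.40) was at 0.91 with isoforms of status OK, 1.19 with reference isoforms of status OK and -0.52 with TPM. Embryo Stab2 (0.55) was at 1.15 with reference isoforms only and 1.14 with those of status OK. Other causes were not tested. No paired analysis was possible because each group has 1 library. Depth limits the embryo values of Stab2 most, at under 2 FPKM.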
